A study of Mus musculus with 5 samples.

Results

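Heart muscle transcripts were followed in mouse blood that had been drawn through the heart wall. The 9 genes were Actc1, Acta1, Myl2, Myl7, Myh6, Tnnt2, Tnni3, Mb and Nppa, a listed set of contractile, oxygen-binding and hormone genes of the heart. They were read from every probe set that the array annotation assigned to 1 of these symbols alone, which gave 13 of 45037 non-control probe sets and 9 of 18193 named genes. A probe set is a group of short DNA probes read as 1 value.

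Whole blood of adult female first-generation mice was profiled on Affymetrix arrays, 1 array per sample, to compare basal expression between genotypes. Of the 5 samples, 3 came from the cross of DBA/2J with FVB/NJ (DBAxFVB F1) and 2 from the cross of AKR/J with FVB/NJ (AKRxFVB F1), so every animal carried an FVB/NJ genome from 1 parent. All were killed by cervical dislocation under the anaesthetic Avertin and bled by cardiac puncture, and no animal was described as treated. Whether each sample was 1 animal or a pool is not given in the labels, so p-values measure the spread between these samples only, which may be technical.

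The deposited log2 values of non-control probe sets had array medians of 2.49 to 2.54. Blood cell genes stood well above it, with 18 of 18 measured genes above the array median on all arrays. On DBAxFVB F1 array 3 the 18 hybridisation controls, labelled transcripts added to every sample, had a median of 7.99, against 10.01 to 10.12 on the other 4 arrays. The 3-prime minus 5-prime difference of Actb, a sign of RNA quality, was 0.82, 0.68 and 1.32 on the DBAxFVB F1 arrays and 1.22 and 1.03 on the AKRxFVB F1 arrays. The part of these differences in the results below was not tested.

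Heart muscle contracts when thick filaments of myosin pull on thin filaments of actin, and troponin on the thin filament makes the pull depend on calcium. Atrium and ventricle use partly different versions of these proteins, Myl7 being the atrial and Myl2 the ventricular regulatory light chain of myosin. A needle passed through the chest wall and the heart can carry muscle RNA into the blood sample, and circulating blood cells are not known as a main source of these transcripts. In a bulk sample, fewer cells of a type and less RNA per cell cannot be told apart.

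A CArG box, the binding site of serum response factor that many muscle genes carry, was found within the 250 bases before the start of 3 of the 9 genes, Actc1, Acta1 and Myl7. It occurred in 1.47% of 32851 promoters of the same length, searched by that name's usual letters, which read alike on both strands. That share counts promoters and not genes, and the 9 genes had 13 promoters. The 120 bases before the start site are shown for these 3 genes because they hold the box, and capitals mark it. The sequences are RefSeq's for GRCm38.p6, all on the minus strand, at chr2:114052876-114052995 for Actc1, chr8:123894776-123894895 for Acta1 and chr11:5898783-5898902 for Myl7.
Actc1: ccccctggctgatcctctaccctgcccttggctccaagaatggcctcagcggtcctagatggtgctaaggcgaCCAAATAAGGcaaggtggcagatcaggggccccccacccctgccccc
Acta1: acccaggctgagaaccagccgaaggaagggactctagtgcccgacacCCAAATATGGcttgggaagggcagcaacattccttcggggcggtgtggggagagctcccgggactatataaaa
Myl7: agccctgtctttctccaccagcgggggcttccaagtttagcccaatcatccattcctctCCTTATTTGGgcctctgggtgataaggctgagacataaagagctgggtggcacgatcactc
The box began 47 bases before the start in Actc1, 73 in Acta1 and 61 in Myl7. A match of letters is a description of these windows and says nothing on binding in these animals.

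The member values ran from 1.62 to 4.13, and none was above the percentile of 89.6 among the non-control probe sets of its array. Of the 13 probe sets, 4 lay above the array median on all 5 arrays (Actc1, Acta1 and both of Mb), 3 lay below it on all arrays and 6 crossed it. Among genes of unrelated tissues such as liver, retina and testis, 11 of 22 lay above the median on all arrays, so a place above the median does not separate heart muscle genes from genes that neither blood nor heart is known for.

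No member passed the test between the crosses, and 7 of the 9 genes had the higher mean in DBAxFVB F1. Each difference is the DBAxFVB F1 mean less the AKRxFVB F1 mean in log2 units, with limma's standard error, and a call needed an adjusted p (Benjamini-Hochberg) below 0.05. A gene with several probe sets is represented by the brightest one unless the probe set is named. Limma called 0 of the 6 member probe sets that passed the filter on low values and, in the fit without a filter, 0 of all 13. The background was 0% of 22519 probe sets past the filter and 0% of 45037 without it. The smallest limma adjusted p of a member was 0.382.

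**Figure D1:**
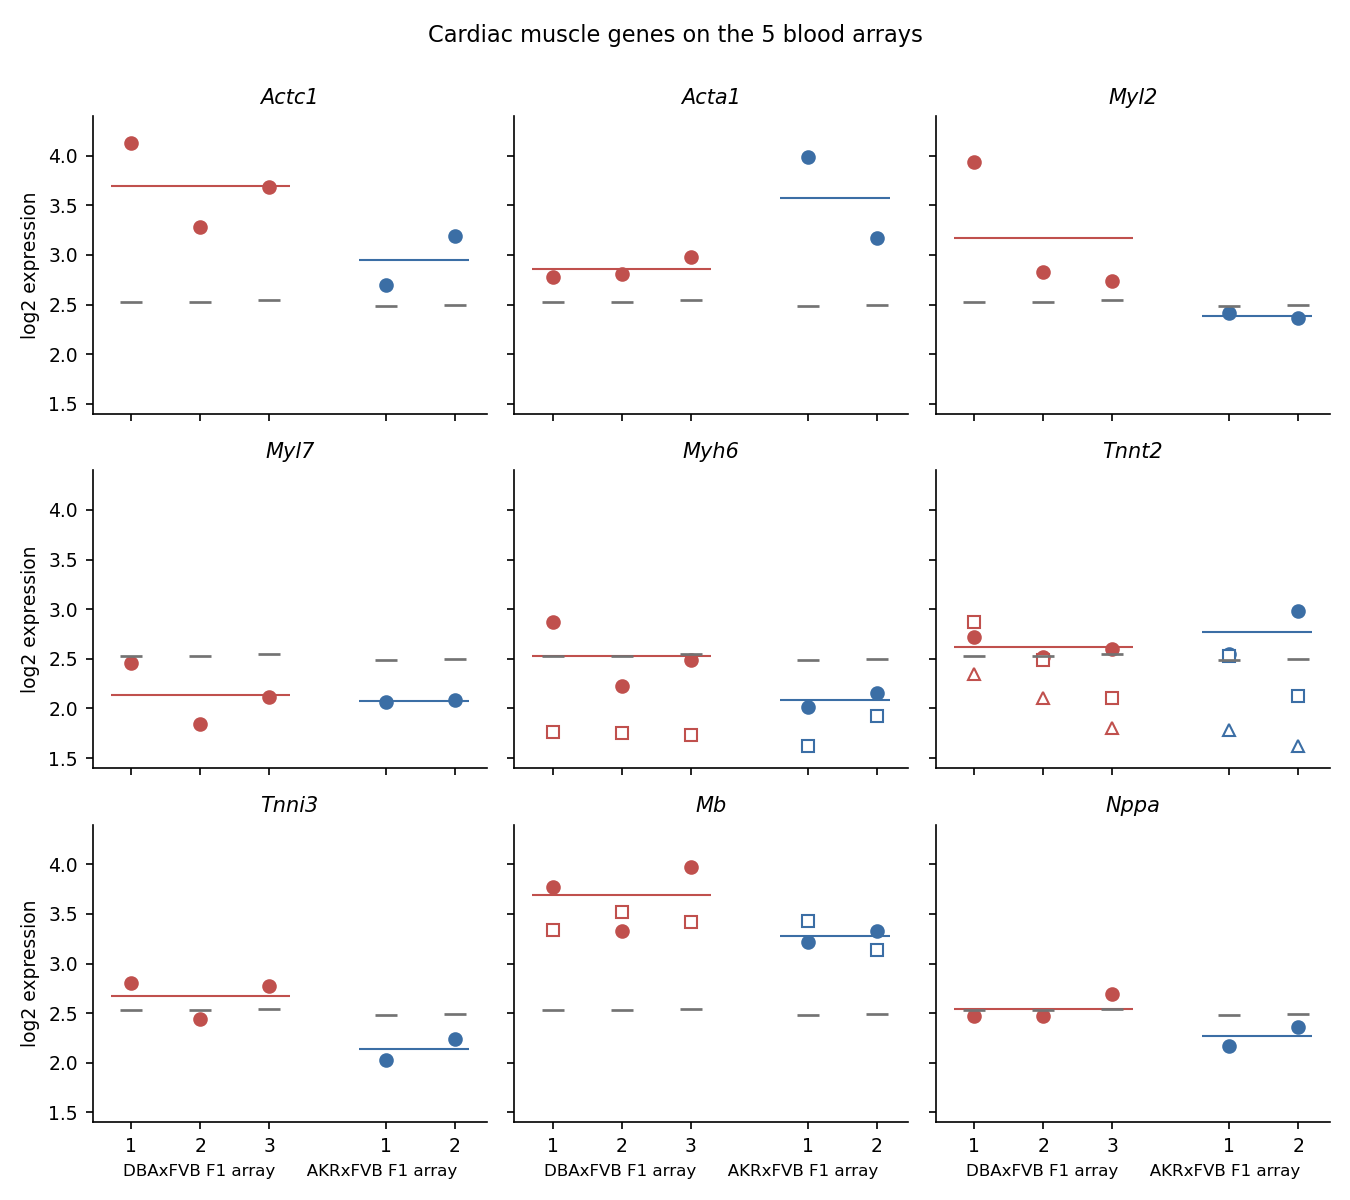
Log2 expression of the 9 cardiac muscle genes on the 3 DBAxFVB F1 arrays (red) and the 2 AKRxFVB F1 arrays (blue). Filled circles are the brightest probe set of a gene and open symbols its other probe sets, horizontal lines are group means of the brightest probe set, and grey dashes are array medians. Actc1, Myl2, Myh6, Tnni3 and Nppa read higher on all DBAxFVB F1 arrays than on either AKRxFVB F1 array, and Acta1 lower.

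The cardiac and skeletal actins of the thin filament went opposite ways. Actc1, the main actin of the adult heart, read 4.13, 3.28 and 3.68 on the DBAxFVB F1 arrays and 2.70 and 3.19 on the AKRxFVB F1 arrays. The groups did not overlap, and the lowest DBAxFVB F1 value lay just above the highest AKRxFVB F1 value. The difference was 0.75 ± 0.27 (SE), with a 95% interval of 0.11 to 1.39 and a limma adjusted p of 0.408.

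Acta1, the actin of skeletal muscle that the heart makes mostly before birth and under load, read 2.78, 2.80 and 2.98 on the DBAxFVB F1 arrays and 3.98 and 3.17 on the AKRxFVB F1 arrays. Here every DBAxFVB F1 array was below both AKRxFVB F1 arrays. The difference was -0.72 ± 0.24 (SE), with a 95% interval of -1.29 to -0.16 and a limma adjusted p of 0.382. AKRxFVB F1 array 1 stood 0.82 above the next value, and without that array the difference was -0.31, against -1.13 without AKRxFVB F1 array 2.

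Of the myosin genes, the ventricular light chain varied most. Myl2 read 3.93, 2.83 and 2.74 on the DBAxFVB F1 arrays and 2.41 and 2.36 on the AKRxFVB F1 arrays. Both AKRxFVB F1 values lay below their array medians, all 3 DBAxFVB F1 values lay above theirs, and DBAxFVB F1 array 1 was 1.10 above the next value. Its range over the arrays, 1.57, was the widest of the 13 probe sets. Of the 8607 non-control probe sets with a mean within 0.25 of Myl2's, 0.883% had a range as wide. For the other member probe sets the like share ran from 2.09% (dimmest of Tnnt2) to 75.4% (dimmer of Mb). The difference was 0.78 ± 0.34 (SE), with a 95% interval reaching up to 1.57 and a limma adjusted p of 0.481, and without DBAxFVB F1 array 1 it was 0.40.

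Myl7, the atrial light chain, read 2.46, 1.84 and 2.12 on the DBAxFVB F1 arrays and 2.07 and 2.08 on the AKRxFVB F1 arrays. All 5 values were below the array medians and the groups overlapped. The difference was 0.06 ± 0.17 (SE), with a 95% interval of -0.32 to 0.45, and turned to -0.10 without DBAxFVB F1 array 1.

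Myh6 encodes the alpha heavy chain, the main motor myosin of the adult mouse heart, and its probe sets disagreed. The brighter one read 2.87, 2.23 and 2.49 on the DBAxFVB F1 arrays and 2.01 and 2.15 on the AKRxFVB F1 arrays, without overlap and with DBAxFVB F1 array 1 again highest. Its difference was 0.45 ± 0.19 (SE; limma adjusted p = 0.554 in the fit without a filter). With DBAxFVB F1 array 1 left out it was 0.28. The dimmer one read 1.77, 1.75 and 1.73 on the DBAxFVB F1 arrays and 1.62 and 1.92 on the AKRxFVB F1 arrays, a difference of -0.02 ± 0.11. A pair of further probe sets is shared by Myh6 and Myh7, the beta heavy chain, and differed by 0.28 ± 0.22 and 0.03 ± 0.10.

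Troponin I and troponin T differed in how far the crosses separated. Tnni3, the cardiac inhibitory subunit, read 2.80, 2.44 and 2.78 on the DBAxFVB F1 arrays and 2.03 and 2.24 on the AKRxFVB F1 arrays. Its groups did not overlap, with both AKRxFVB F1 values below the array medians. The difference of 0.54 ± 0.16 (SE) had a 95% interval of 0.17 to 0.90. Tnni3 had the smallest unadjusted p of the members, 0.0084, and a limma adjusted p of 0.398 in the fit without a filter, since its mean was below the filter.

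Tnnt2, the cardiac subunit that ties troponin to tropomyosin, had 3 probe sets with 3 patterns. The brightest read 2.72, 2.52 and 2.60 on the DBAxFVB F1 arrays and 2.55 and 2.98 on the AKRxFVB F1 arrays, with a difference of -0.15 ± 0.17 (SE) that turned to 0.0664 without AKRxFVB F1 array 2. The next, whose _x_at name marks probes that can match other transcripts, differed by 0.16 ± 0.22. The dimmest read 2.34, 2.10 and 1.81 on the DBAxFVB F1 arrays and 1.78 and 1.62 on the AKRxFVB F1 arrays, below every array median. Its groups did not overlap, and it differed by 0.38 ± 0.15. The probe sets of Tnnt2 therefore gave no common direction.

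Mb, the oxygen-binding protein of heart and red skeletal muscle, read 3.78, 3.33 and 3.97 on the DBAxFVB F1 arrays and 3.22 and 3.33 on the AKRxFVB F1 arrays. DBAxFVB F1 array 2 and AKRxFVB F1 array 2 held the same value, so the groups touched. The difference was 0.42 ± 0.22 (SE), with a limma adjusted p of 0.555, and was 0.28 without DBAxFVB F1 array 3. The other probe set of Mb differed by 0.15 ± 0.17.

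Nppa, which encodes the atrial natriuretic hormone precursor, read 2.47, 2.47 and 2.69 on the DBAxFVB F1 arrays and 2.17 and 2.36 on the AKRxFVB F1 arrays. The groups did not overlap, and only DBAxFVB F1 array 3 was above its array median. The difference was 0.28 ± 0.14 (SE; limma adjusted p = 0.642 in the fit without a filter). With AKRxFVB F1 array 1 left out it was 0.18.

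**Figure D2:**
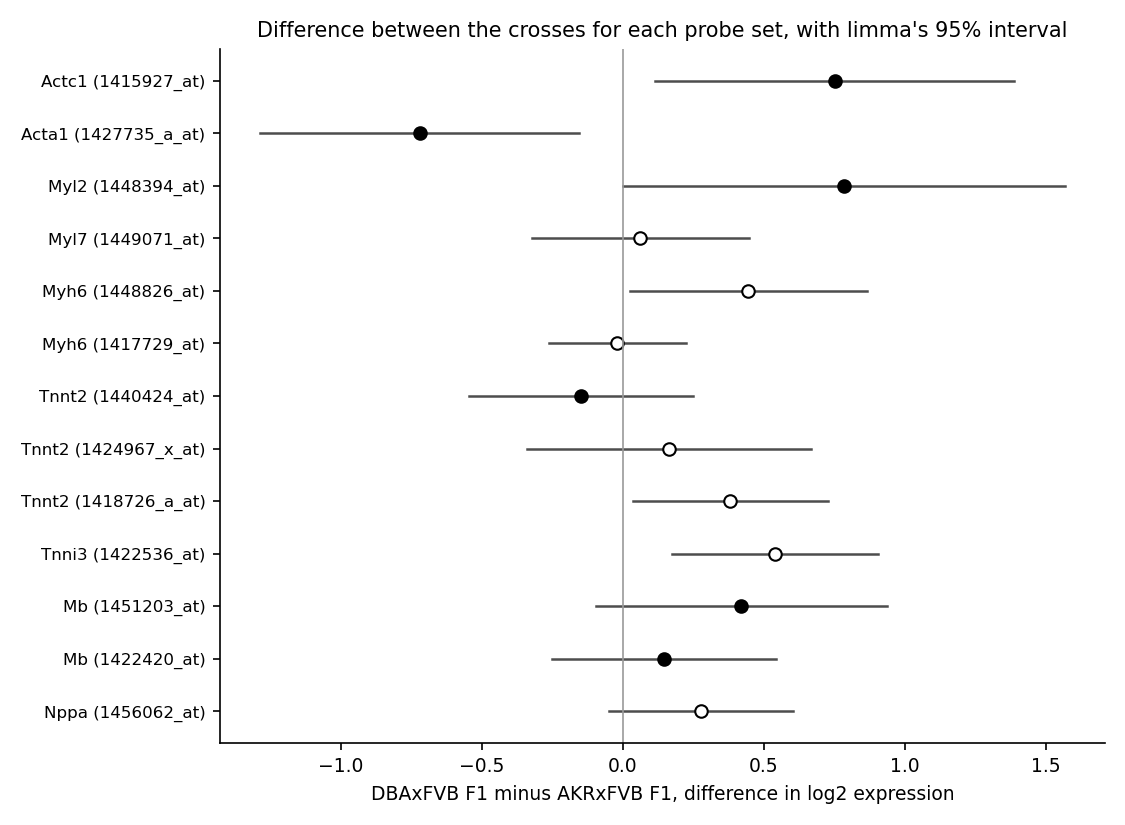
Difference in log2 expression, DBAxFVB F1 minus AKRxFVB F1, for the 13 probe sets of the cardiac muscle genes (points) with limma's 95% interval (lines). Filled points passed the filter on low values and open points come from the fit without a filter; 10 points lie above 0 and 3 below.

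Counted over probe sets, 10 of the 13 were higher and 3 lower in DBAxFVB F1, against 55.8% higher among all non-control probe sets. The groups did not overlap in 6 with DBAxFVB F1 higher and in 1 with DBAxFVB F1 lower, where the background shares were 14.6% and 11.1%. An unadjusted limma p below 0.05 was reached by 6 of 13, 5 of them higher, against 8.62% of all probe sets in both directions and 3.47% in that direction. A difference of 0.5 or more was seen upward in 3 (Actc1, Myl2 and Tnni3) and downward in 1 (Acta1), against 1.83% and 5.1% of all probe sets. Several probe sets share a gene, and all share the same 5 samples. The counts are thus no independent measurements.

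Taken by gene, the median difference was 0.42, against 0.05 over all 18193 named genes. Dim probe sets as a whole leaned the same way by a small amount, with a median difference of 0.07 for means of 2.5 to 3 and of 0.04 for means of 2 to 2.5. Relative to probe sets of like mean level, the median over the 9 genes was 0.35. Without DBAxFVB F1 array 3, the array with dim hybridisation controls, the median difference of the 9 genes was 0.28.

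The highest value fell on DBAxFVB F1 array 1 for 5 of the 9 genes (Actc1, Myl2, Myl7, Myh6 and Tnni3), against 18.3% of named genes. The lowest fell on AKRxFVB F1 array 1 for 5 of the 9, against 26.4%. Among the 36 pairs of members, Mb and Tnni3 had the most alike profiles, with a root mean square difference of 0.12 between values centred on each gene's mean over the 5 arrays. Myh6 and Tnni3 followed at 0.13, and Myl2 and Acta1 were farthest apart at 0.91. On the linear scale, the summed level of the 9 genes was 85.3, 58.8 and 72.5 units on the DBAxFVB F1 arrays and 59.6 and 59.7 on the AKRxFVB F1 arrays, so DBAxFVB F1 array 2 lay below both AKRxFVB F1 arrays.

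Myl3, the ventricular essential light chain of myosin, was among the genes closest to Myl2. The reference profile was that of the member probe set with the widest range, and likeness was again the root mean square difference over the 5 arrays, among 18717 probe sets of non-member genes past the filter. The 10 closest genes, at 0.15 to 0.23, were Zdhhc4, Myl3, Tmem189, Fam193a, Sipa1l1, Fscn1, Urm1, Htr2b, Pom121l2 and Olfml2b. Of the 100 closest probe sets, 3 belonged to the list of other cardiac muscle genes, Myl3 and Tnnc1, where 0.321% of eligible probe sets belong to that list. Of the 100 closest to Actc1, 2 did, both of Myl3, and of the 100 closest to Acta1, 0 did.

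The nearest probe set of Myl3 read 3.63, 2.70 and 2.91 on the DBAxFVB F1 arrays and 2.38 and 2.34 on the AKRxFVB F1 arrays, a difference of 0.72 ± 0.26 (SE; limma adjusted p = 0.410). Another read 4.42, 3.78 and 3.95 on the DBAxFVB F1 arrays and 3.45 and 3.50 on the AKRxFVB F1 arrays, a difference of 0.58 ± 0.23. In both, DBAxFVB F1 array 1 was highest and the groups did not overlap. The brightest Myl3 probe set instead read 4.74, 4.45 and 4.56 on the DBAxFVB F1 arrays and 4.62 and 4.68 on the AKRxFVB F1 arrays, a difference of -0.07 ± 0.22, so the probe sets of this gene disagreed. The names of the first pair, ending in _s_at and _x_at, mark probes that can match other transcripts.

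**Figure D3:**
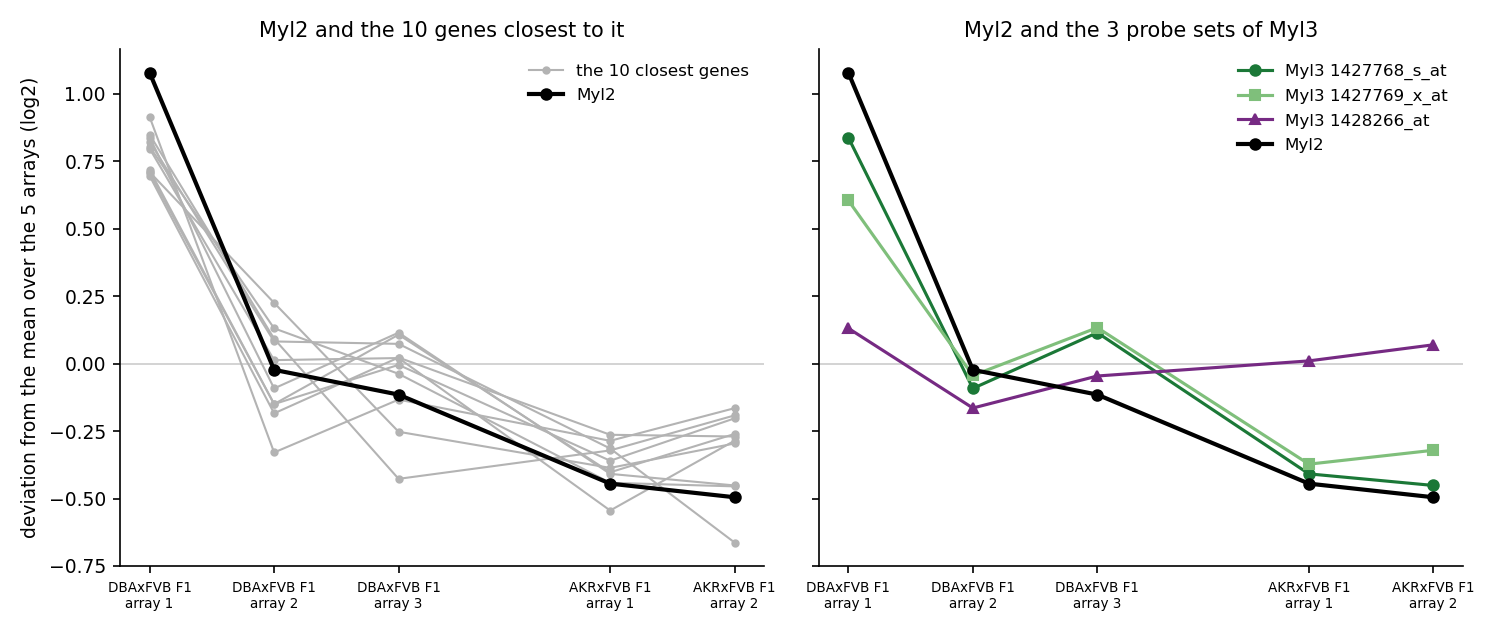
Deviation of each probe set from its own mean over the 5 arrays (log2), for Myl2 with the 10 genes closest to it (left) and with the 3 probe sets of Myl3 (right); lines only join the points of a probe set. The 10 genes were chosen for this likeness, and of the Myl3 probe sets 2 follow Myl2 while the brightest stays within 0.17 of its mean.

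The list of other cardiac muscle genes held 49 genes with a probe set. Of these, 36 were higher and 13 lower in DBAxFVB F1, against 58.7% of named genes higher, and limma called 0. Their median difference was 0.21. The groups did not overlap, DBAxFVB F1 higher, in 17 of the 49, against 16.6% of named genes, and an unadjusted p below 0.05 was reached by 3, against 9.15%. Genes of unrelated tissues gave counts of the same kind, with 15 of 22 higher, 7 without overlap, 1 at an unadjusted p below 0.05 and a median difference of 0.17. Whether the lists differ from each other was not tested.

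The cardiac genes with the widest range did not share a high array. Ttn, the giant spring protein of the sarcomere, read 3.17, 3.57 and 4.61 on the DBAxFVB F1 arrays and 2.91 and 3.32 on the AKRxFVB F1 arrays, and Myh7 read 3.02, 3.12 and 4.05 on the DBAxFVB F1 arrays and 3.04 and 3.29 on the AKRxFVB F1 arrays. Both were highest on DBAxFVB F1 array 3, as was the cardiac transcription factor gene Hand2 at 3.23. Tnnc1, the calcium-binding troponin subunit of heart and slow muscle, read 3.52, 2.60 and 2.92 on the DBAxFVB F1 arrays and 2.80 and 2.78 on the AKRxFVB F1 arrays. The mitochondrial creatine kinase gene Ckmt2 read 3.09, 2.32 and 2.34 in DBAxFVB F1 and 2.25 and 2.13 in AKRxFVB F1. These were highest on DBAxFVB F1 array 1, like Myl2. Casq2, the calcium store protein of cardiac muscle, was highest on AKRxFVB F1 array 2 and differed by -0.10 ± 0.32 (SE). Over the list, 19 of 49 genes were highest on DBAxFVB F1 array 3, against 28.5% of named genes, and 14 on DBAxFVB F1 array 1.

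Skeletal muscle genes, which a needle through the chest wall could bring, had 19 of 24 higher, a median difference of 0.11 and 0 called. Mylpf, the regulatory light chain of fast skeletal muscle, read 2.84, 2.57 and 2.59 on the DBAxFVB F1 arrays and 3.46 and 2.44 on the AKRxFVB F1 arrays. Its high array, AKRxFVB F1 array 1, was the one where Acta1 was highest. The fast-fibre actinin gene Actn3 read 2.94, 2.34 and 2.80 in DBAxFVB F1 and 2.22 and 2.29 in AKRxFVB F1. It was lowest on that array. Of the 24 skeletal muscle genes, 5 were highest on AKRxFVB F1 array 1 and 7 lowest, against 17.2% and 26.4% of named genes. Summed on the linear scale, the skeletal list was at 175, 171 and 177 units on the DBAxFVB F1 arrays and 165 and 158 on the AKRxFVB F1 arrays, with both AKRxFVB F1 sums below all 3 DBAxFVB F1 sums.

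Markers of further cell types along the path of the needle gave no called gene either. The median difference was 0.20 for 10 smooth muscle genes, 0.14 for 14 endothelial genes, 0.03 for 10 fibroblast genes, 0.19 for 5 adipocyte genes and 0.15 for 6 mesothelial genes. Blood cell genes had a median difference of -0.44, with 14 of 18 lower in DBAxFVB F1. Their median level was 6.51. All probe sets with means of 6 to 8 also had a median difference of -0.44, with 19.7% higher in DBAxFVB F1. The size of that shift is thus not particular to the list, but its spread over the arrays differed. Median deviations of blood cell genes were -0.05, -0.13 and -0.17 on the DBAxFVB F1 arrays and 0.14 and 0.23 on the AKRxFVB F1 arrays. For all probe sets with means of 6 to 8 they were 0.04, 0.11 and -0.65, and 0.09 and 0.36. Blood cell groups did not overlap, DBAxFVB F1 lower, in 4 of 18 genes, against 10.6% of named genes. With DBAxFVB F1 higher it was 1, against 16.6%. On DBAxFVB F1 array 1, where most of the 9 genes were highest, the summed linear level was 211 units for smooth muscle, 156 for endothelial and 108 for fibroblast genes. Over the other arrays these sums ran from 103 to 240, 119 to 191 and 106 to 168 units, so these 3 sums lay within the span of the other arrays. The adipocyte sum, 45.9 units, lay within it as well, at 38.1 to 49.6 on the others. The mesothelial sum did not: it was 43.9 units on DBAxFVB F1 array 1, against 34.5 to 42.8 on the others, and 3 of its 6 genes were highest there. Of the smooth muscle genes 4 of 10 were highest on that array, of the endothelial 3 of 14 and of the fibroblast 1 of 10, against 18.3% of named genes. The smooth muscle sum ranked the 5 arrays as Mylk did, the gene of that list with the widest range. Mylk read 6.75, 6.27 and 4.35 on the DBAxFVB F1 arrays and 5.39 and 7.29 on the AKRxFVB F1 arrays. Pf4 of the blood cell list ranked the arrays in the same order, at 10.7, 10.3 and 8.53 in DBAxFVB F1 and 9.58 and 11.3 in AKRxFVB F1. Which cells the Mylk values came from was not tested. The part of these cell types in the values of the 9 genes was not tested.

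**Figure D4:**
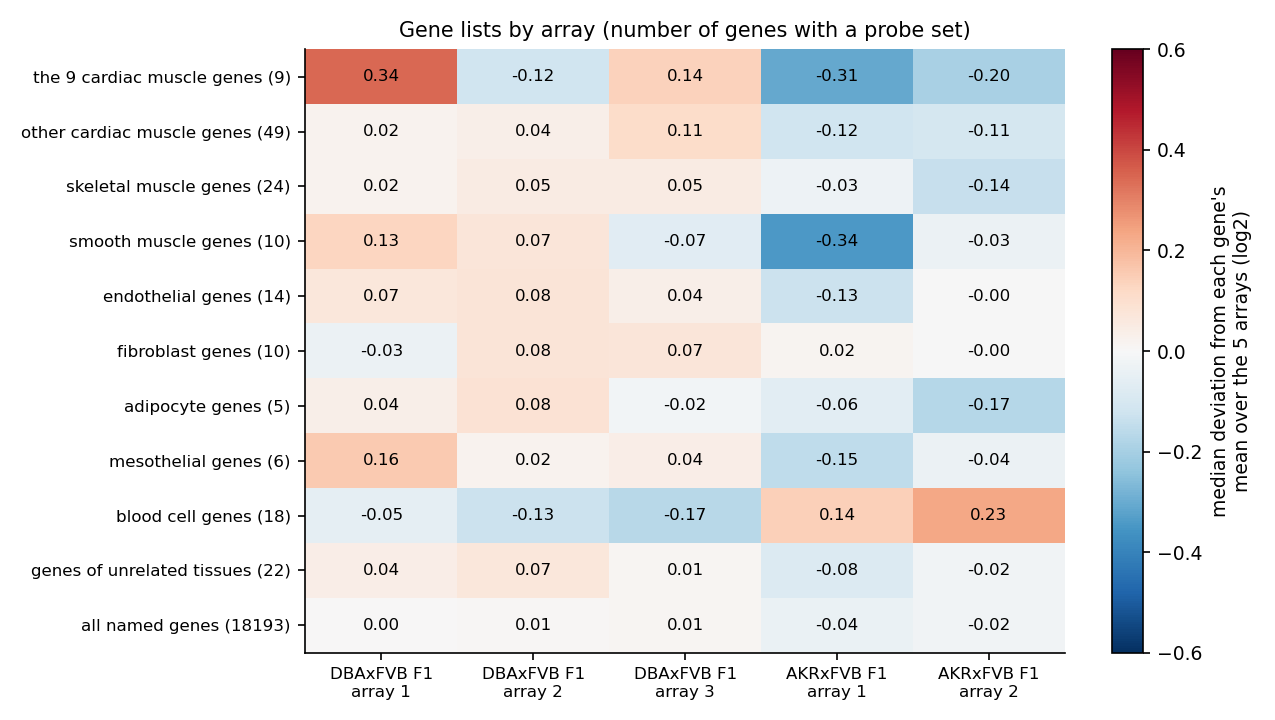
Median over each gene list of the deviation from a gene's mean over the 5 arrays (log2), for the 3 DBAxFVB F1 arrays and the 2 AKRxFVB F1 arrays, with the number of genes that have a probe set in parentheses. The 9 cardiac muscle genes read 0.34, -0.12 and 0.14 on the DBAxFVB F1 arrays and -0.31 and -0.20 on the AKRxFVB F1 arrays; the other cardiac muscle genes stay between -0.12 and 0.11.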

How the data were processed

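The deposited table holds a normalized value for each probe set on each array. The values the authors deposited were read as log2 expression because they span 1.29 to 14.8, and no source states the base. Per the labels' protocols, Trizol RNA was amplified in 2 cycles and labelled with biotin. MAS5 and RMA are both named, per the submitters' processing notes, without saying which gave these values, so no detection limit is known and differences of dim probe sets may be too small. The 9 genes and the 10 gene lists were chosen with earlier results of these data known.

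Symbols came from the platform annotation: 34958 of 45101 probe sets had 1 symbol, 932 several and 9211 none. Identifiers of 34754 were found in the GRCm38.p6 gene table, which changed 0 symbols. The 64 control probe sets were left out.

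Probe sets with a mean of at least 2.51, the median of all means, were tested (22519) with limma 3.58.1 in R 4.3.3 (eBayes with trended variance, two-sided, 3 residual degrees of freedom, cross as the only term). Members under the filter were taken from the fit without one. An exact permutation test of 3 against 2 cannot go below 0.1. On simulated data for this comparison, a change of 4-fold was called in 740 of 1000 probe sets, and 23 of 111595 without a change were called. Only probe sets past the filter were simulated. The largest member difference was 1.72-fold (Myl2), so the simulation gives no rate for changes of the members' size. Named were all members, up to 6 genes per list by range, and the 10 genes closest to the member with the widest range. Alternatives were other normalizations, filters and variance settings, the replicate number as a block and each array left out. Python 3.11.15, pandas 2.3.3 and matplotlib 3.10.9 did the rest.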

Additional observations from a re-analysis of the deposited data

How the results depend on the processing

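Limma called 0 probe sets and 0 members under every alternative run, with 1271 to 3880 probe sets at an unadjusted p below 0.05. Of the 9 genes, 7 kept the sign of their difference under all 13 alternatives, and the call was unchanged for each. The filters and variance settings leave a gene's difference as it is, so its sign could not change there. The replicate block gave the same differences as leaving out DBAxFVB F1 array 3, so it is no separate check of sign. The difference of Myl7 turned to -0.10 without DBAxFVB F1 array 1 and that of Tnnt2 to 0.0664 without AKRxFVB F1 array 2. The median difference of the 9 genes ran from 0.28 to 0.59 with 1 array left out, was 0.35 after cyclic loess normalization, and was 0.28 with every probe set as an entry or with probe sets averaged by gene. With 1 array left out, Actc1 ran from 0.51 to 0.996, Myl2 from 0.40 to 0.998, Acta1 from -1.13 to -0.31 Tnni3 from 0.43 to 0.66, Myl7 from -0.10 to 0.21 and Tnnt2 from -0.37 to 0.0664. As an alternative added after seeing the data, the count of member probe sets without overlap and higher in DBAxFVB F1 ran from 6 to 8 with 1 array left out, where 21.4% to 30.9% of all probe sets did so.

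With the replicate number as a block, 0 probe sets and 0 members were called, and the median difference was 0.28. Deviations from the group means of the arrays numbered 1 correlated at -0.26 and of those numbered 2 at 0.17. These cannot decide whether the numbers pair the arrays. The deviations of the 2 AKRxFVB F1 arrays mirror each other, so swapping these arrays only turns the sign. The level of the 9 genes above the array median was 0.16, or 0.10 against the median of probe sets with 1 symbol. By array their median stood at 0.28, -0.01 and 0.20 in DBAxFVB F1 and at -0.08 and -0.13 in AKRxFVB F1. All named genes, also read by their brightest probe set, had medians 0.35 to 0.40 above the array medians, so the 9 genes were dimmer than named genes as a whole. A permutation test over samples, planned as an alternative, was not run across probe sets, since it cannot pass the threshold.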

Other observations

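Of 10 fibroblast genes, 5 were highest on DBAxFVB F1 array 3, 4 on array 2 and 1 on array 1 of that cross. Dcn, a collagen-binding proteoglycan of fibroblasts, read 3.97, 4.33 and 6.05 on the DBAxFVB F1 arrays and 4.81 and 4.85 on the AKRxFVB F1 arrays. Col3a1, a fibrillar collagen gene, read 2.13, 2.11 and 3.32 in DBAxFVB F1 and 2.60 and 2.19 in AKRxFVB F1. Sparc, a matrix glycoprotein gene, read 4.03, 4.33 and 4.87 in DBAxFVB F1 and 4.07 and 3.60 in AKRxFVB F1. These 3, the fibroblast genes with the widest range over the 5 arrays, were highest on DBAxFVB F1 array 3, the array with dim hybridisation controls, and not on array 1, where Myl2 and Actc1 were highest. The endothelial junction gene Cldn5 was also highest there, at 3.96, and read 3.32 and 3.39 on the other DBAxFVB F1 arrays and 2.94 and 2.74 on the AKRxFVB F1 arrays (limma adjusted p = 0.343). Esam of the same list was instead lowest on DBAxFVB F1 array 3, at 3.46. Mfap5, the fibroblast gene next in range, was highest on DBAxFVB F1 array 1 at 4.28. Highest on DBAxFVB F1 array 3 were 19 of 49 other cardiac muscle genes, 5 of 10 fibroblast genes and 5 of 14 endothelial genes, against 28.5% of named genes.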
